A study of Homo sapiens with 32 samples.

Results

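The 8 genes described here belong to the NF-kB pathway and its feedback loops. They are NFKBIA, NFKBIE, NFKB1, NFKB2, RELB, TNFAIP3, MAP3K14 and IER3, taken by symbol from a list of 8 among 60662 gene IDs counted in HEK293T cells, an established line derived from human embryonic kidney in which the SV40 large T antigen is expressed. Poly(A) RNA was sequenced in 32 libraries, which were placed here in 3 experiments that the sample titles do not name. Those titles do not state whether the 6 h libraries with and without siRNA were made side by side. The knockdown experiment had 4 groups of 3 libraries, all collected after 6 h of treatment. The groups received 0.2% DMSO, STM2457 (20 µM, an inhibitor of METTL3, the enzyme that writes N6-methyladenosine or m6A in mRNA), YTHDF2 siRNA (20 nM, against an m6A reader that recruits deadenylases) with DMSO, or YTHDF2 siRNA with STM2457. The 9 h experiment compared 4 DMSO libraries with 4 STM2457 libraries. The emetine experiment had 4 groups of 3 libraries, given DMSO or STM2457 for 6 h. Each had 1.8 µM emetine, a blocker of translation elongation, or DMSO in its place in the last 2 h. The arms given DMSO in the last 2 h are called without emetine or none below. All groups came from the same line with no stimulus of the pathway added, and the labels do not say whether the libraries without YTHDF2 siRNA received the control siRNA.

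NF-kB transcription factors are dimers of RELA, REL, RELB and the processed products of NFKB1 (p105 to p50) and NFKB2 (p100 to p52). Inhibitors such as NFKBIA (IkBα) and NFKBIE (IkBε) hold the dimers in the cytoplasm until IkB kinase marks the inhibitors for degradation, which is the canonical arm. In the non-canonical arm, the kinase NIK, encoded by MAP3K14, drives processing of p100, so that RELB enters the nucleus. NFKBIA, TNFAIP3 (A20, a ubiquitin-editing enzyme), NFKB2, RELB and IER3 (an early response gene linked to survival signalling) are themselves well-known NF-kB target genes, and this makes the pathway self-limiting.

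The annotation (GENCODE 29, GRCh38) places these protein coding genes on 6 chromosomes. NFKBIA (ENSG00000100906.10) lies at chr14:35401511-35404749 on the minus strand, NFKBIE (ENSG00000146232.16) at chr6:44258166-44265788 on the minus strand and NFKB1 (ENSG00000109320.13) at chr4:102501329-102617302 on the plus strand. NFKB2 (ENSG00000077150.20) lies at chr10:102394110-102402529 and RELB (ENSG00000104856.14) at chr19:45001430-45038198, both on the plus strand. TNFAIP3 (ENSG00000118503.15) lies at chr6:137867188-137883312 on the plus strand, MAP3K14 (ENSG00000006062.17) at chr17:45263119-45317145 on the minus strand and IER3 (ENSG00000137331.12) at chr6:30743199-30744554 on the minus strand. TNFAIP3, MAP3K14 and IER3 each share exonic sequence with an antisense gene, and since the strand setting of the counting is not given in the sources used here, reads of each pair might be mixed. Group means of MAP3K14-AS1 ranged from 0.599 to 2.02 CPM, a read count scaled to library size, and those of IER3-AS1 from 0.438 to 0.659. No level was obtained for AL357060.1, the antisense gene of TNFAIP3.

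Promoters are shown for NFKBIA, NFKB2 and TNFAIP3, as feedback targets that carry kappaB motifs, and for MAP3K14, the member with the largest change in these data. Each sequence is from RefSeq (GRCh38.p14), lies mostly upstream of a transcription start and reaches into the transcript, and has matches to the degenerate kappaB decamer, searched on both strands with overlapping matches counted once, in capitals.
NFKBIA promoter, chr14:35404700-35404999, minus strand: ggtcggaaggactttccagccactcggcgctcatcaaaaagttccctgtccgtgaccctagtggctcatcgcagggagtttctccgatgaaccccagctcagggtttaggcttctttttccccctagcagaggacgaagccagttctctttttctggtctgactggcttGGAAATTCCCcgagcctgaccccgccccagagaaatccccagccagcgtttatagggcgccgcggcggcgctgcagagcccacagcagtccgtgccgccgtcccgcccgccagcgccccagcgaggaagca
NFKB2 promoter, chr10:102395455-102395754, plus strand: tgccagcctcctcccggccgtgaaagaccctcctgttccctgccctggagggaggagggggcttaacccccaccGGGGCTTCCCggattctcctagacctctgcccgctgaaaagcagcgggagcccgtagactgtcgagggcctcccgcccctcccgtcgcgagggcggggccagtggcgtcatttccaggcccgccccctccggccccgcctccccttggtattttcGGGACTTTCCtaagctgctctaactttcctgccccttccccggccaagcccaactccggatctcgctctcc
TNFAIP3 promoter, chr6:137867009-137867308, plus strand: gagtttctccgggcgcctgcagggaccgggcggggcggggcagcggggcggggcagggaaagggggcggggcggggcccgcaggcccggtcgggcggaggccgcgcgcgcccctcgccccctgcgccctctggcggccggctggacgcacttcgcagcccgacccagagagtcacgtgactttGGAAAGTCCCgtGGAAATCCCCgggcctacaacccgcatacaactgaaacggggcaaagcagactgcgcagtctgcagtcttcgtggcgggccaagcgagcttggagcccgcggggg
MAP3K14 promoter, chr17:45316971-45317270, minus strand: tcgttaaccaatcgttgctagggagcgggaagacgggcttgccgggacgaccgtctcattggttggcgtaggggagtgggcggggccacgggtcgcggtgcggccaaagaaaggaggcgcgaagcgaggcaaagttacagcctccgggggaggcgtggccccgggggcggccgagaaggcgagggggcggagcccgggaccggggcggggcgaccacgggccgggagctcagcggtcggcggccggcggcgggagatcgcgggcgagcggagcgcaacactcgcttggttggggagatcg
At least 1 match was present in 5.91% of the 35116 promoters of this length and at least 2 in 0.302%. NFKBIA had 1 match, beginning at position -81 from the start site. NFKB2 had 2 in the window shown, at -176 and -21, 2 in another of its 3 windows and 0 in the third. TNFAIP3 had 2 matches, at -67 and -55, and NFKB1 had 1 at -49 in the first of its 2 windows. The MAP3K14 window held 0 matches. Sequences of NFKBIE, RELB and IER3 were not used here. A match describes the letters only and does not show that a factor binds.

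Because the study concerns m6A sites in coding sequence, the GGACT core of the m6A consensus was counted in the coding sequence of 1 transcript per gene, on the transcript strand only. Coding windows of 29 bases around every match are shown for NFKB2, the densest among the members with a change under STM2457 in every setting, and for MAP3K14, with the core in capitals.
NFKB2 codon 64: ccctcccatggaGGACTgcccggtgcctc
NFKB2 codon 148: agaacatgatggGGACTatgatacaaaaa
NFKB2 codon 274: gcaggcctttggGGACTtctctcccacag
NFKB2 codon 414: ggtgcccagcagGGACTccggggaggaag
NFKB2 codon 600: cctgactttgagGGACTgtatccagtaca
NFKB2 codon 677: cacctggcagctGGACTggggtacccgac
NFKB2 codon 715: tgatagcgactcGGACTctgaagggcctg
NFKB2 codon 767: ccagcagggccgGGACTgtcacttggtga
MAP3K14 codon 553: cttgctcacaggGGACTacatccctggca
MAP3K14 codon 596: gctgccacccctGGACTcagttcttccga
NFKB2 held 8 matches, or 2.96 per kb of coding sequence, a density that 5.5% of 19178 coding genes reached, and NFKBIA held 3, or 3.14 per kb. TNFAIP3 held 4 (1.69 per kb), NFKB1, RELB and MAP3K14 held 2 each (0.687, 1.15 and 0.703 per kb), and IER3 held 1 (2.12 per kb). NFKBIE held 0, as did 25.9% of coding genes, and the median over coding genes was 0.989 per kb. Whether any of these letters was methylated was not measured.

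Gene counts per library ranged from 37694945 to 42303951 in the knockdown experiment, from 22510323 to 34677704 at 9 h and from 21781514 to 28053353 in the emetine experiment. Of 7 HEK293T markers, 7 were above 1 CPM (reads of a gene relative to all gene reads of its library, with TMM-scaled library sizes) in each experiment, and their summed level ranged from 676 to 1114 CPM over all libraries. Of 5 blood markers only 1 was above 1 CPM (sum 1.65 to 3.07 CPM), with PTPRC, their defining marker, at 0 in the knockdown and 9 h experiments, fibroblast markers summed to 16.2 to 26.1 CPM, and hepatocyte markers summed to at most 0.436 CPM. YTHDF2 itself was at 178 ± 3.91 CPM (mean ± SD, n = 3) in DMSO and 43.3 ± 1.14 CPM with its siRNA, and at 618 ± 36.8 CPM in STM2457 against 76.9 ± 3.28 CPM with both. METTL3 mRNA, whose protein STM2457 inhibits, was at 68.9 ± 0.292 CPM in DMSO and 75.6 ± 2.30 CPM in STM2457. In several groups 1 library stood apart by the chi-square per degree of freedom of its counts against the other replicates. Replicate 3 of STM2457 6 h without siRNA was at 28.2 and 31.4, against 8.23 between the other two. Replicate 2 of DMSO 6 h without siRNA was at 16.97 and 24.1, against 4.58 between the other two. Replicate 2 of STM2457 without emetine was at 11.9 and 7.66, against 2.67 between the other two. By smaller values, replicate 3 of DMSO without emetine was at 6.59 and 7.34, against 1.79 between the others. Replicate 1 of STM2457 with YTHDF2 siRNA was at 8.38 and 7.43, against 3.21. Replicate 4 of DMSO at 9 h was at 5.48 to 8.60, against 2.17 to 3.56 among the others. Values without the first 3 of these libraries are given beside several of the results that use them. The rest enter only the counts and ranges over fits that left out 1 library.

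No member was too low to measure: all 8 passed the low-count filter in each experiment. Reads per library ranged from 45 to 224 for RELB and from 1019 to 1769 for NFKB1. Levels between genes were compared as CPM per kb of exon. In DMSO at 6 h without siRNA, NFKBIA was highest (8.24 ± 0.494 CPM per kb, SD, n = 3), followed by NFKB2 (6.74), IER3 (6.17), NFKB1 (5.67), NFKBIE (3.49), MAP3K14 (1.55), RELB (1.44) and TNFAIP3 (1.14). The libraries of IER3 and NFKB1 overlapped on this scale, as did those of MAP3K14 and RELB, and all other neighbours in this order were apart. The order in the emetine experiment's DMSO group was NFKBIA (8.01), NFKB1 (7.22), NFKB2 (5.56), IER3 (4.88), NFKBIE (3.72), MAP3K14 (1.17), TNFAIP3 (0.893) and RELB (0.724), with overlap only between the last pair. In DMSO at 9 h, NFKB1 (8.11), NFKBIA (8.06) and NFKB2 (7.52) could not be ranked, because the libraries of each overlapped those of the next. There IER3 (5.17) overlapped NFKBIE (4.31), and MAP3K14 (2.08), TNFAIP3 (1.08) and RELB (0.874) followed, each apart from the next.

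The top of this order differed by treatment. After 9 h of STM2457 IER3 came first, at 9.94 CPM per kb, apart from NFKB1 at 7.90. With emetine in DMSO, MAP3K14 reached 7.60 CPM per kb, overlapping NFKB1 at 7.90 and above NFKBIA at 6.72. With emetine and STM2457 it was at 8.47, overlapping NFKB1 (8.16), which overlapped NFKBIA (8.05). RELB or TNFAIP3 was lowest in every group, RELB between 0.709 and 1.64 CPM per kb and TNFAIP3 between 0.893 and 2.46.

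**Figure D1:**
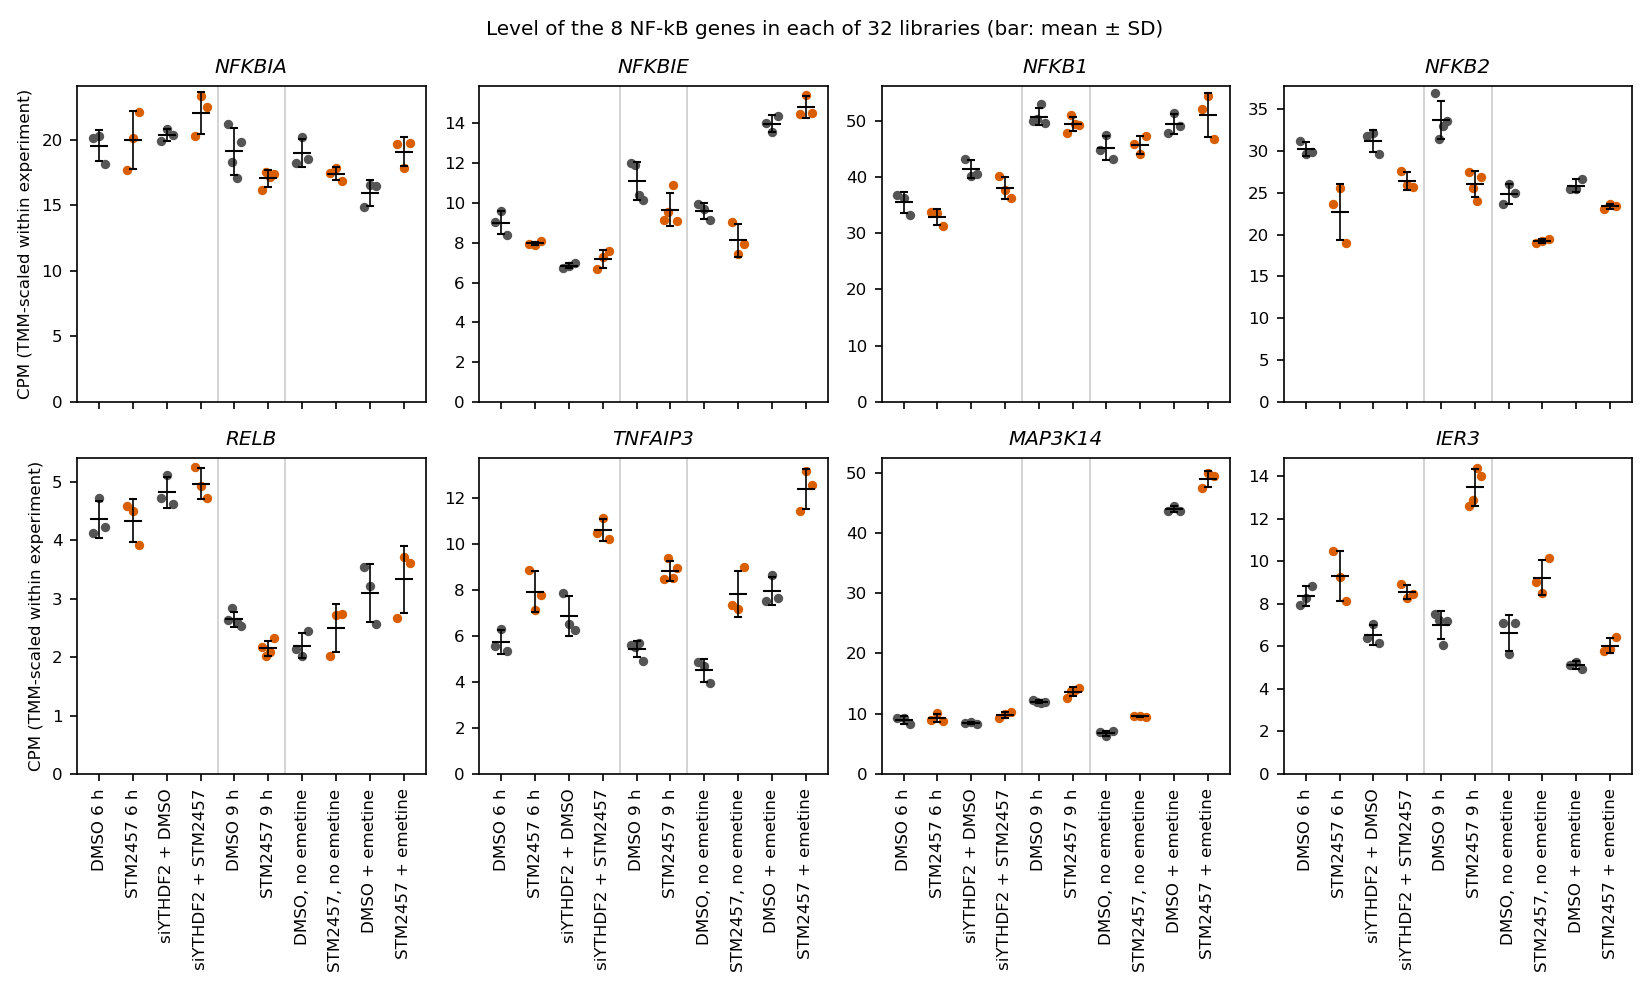
CPM (y axis, scaled with TMM within each experiment) of each of the 8 genes in every library (points, grey for DMSO and orange for STM2457 arms), by group (x axis), with mean ± SD as bars and grey lines between the experiments. MAP3K14 sits at 43.6 to 49.9 CPM in the 6 emetine libraries and at or below 14.3 in all others, and TNFAIP3 is higher in each orange group than in the grey group beside it.

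The first question was how STM2457, which depletes m6A, changed these genes. TNFAIP3 rose and NFKB2 fell in all 5 settings tested (6 h without and with YTHDF2 siRNA, 9 h, and 6 h without and with emetine), which share no libraries with each other. IER3 rose in 3 settings and MAP3K14 in 4. Under both other scalings tried, IER3 lost its call with siRNA, and MAP3K14 its calls with siRNA and with emetine. NFKB1 passed in none of the 5 with TMM scaling and all libraries. With ribosomal protein scaling it passed as lower at 6 h without siRNA and without emetine (-0.156 in the latter), and as higher at 9 h (0.1363). The NFKB2 and TNFAIP3 changes kept their signs under the other scalings tried, but not every call held. Under spike-in scaling that of TNFAIP3 was lost in both settings of the knockdown experiment and that of NFKB2 with emetine, as described below. Under ribosomal protein scaling that of TNFAIP3 was lost without siRNA and held with it. In fits without 1 library the NFKB2 calls with siRNA and with emetine were lost in 4 and 6 of 6. In bulk RNA, a change in all cells and a change in part of them cannot be told apart. Changes were fitted with edgeR's quasi-likelihood test, adjusted over all genes tested with a threshold of 0.05, and are relative to the bulk of mRNAs, because TMM scaling centres the libraries on it.

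In the knockdown experiment without siRNA, 1 member rose and 1 fell, so 2 of 8 passed the test where 45.0% of 16662 genes did (22.9% higher and 22.1% lower). The median log2 change was 0.01 over the members and -0.02 over all genes. TNFAIP3 was at 5.55, 6.32 and 5.34 CPM in DMSO and at 8.88, 7.13 and 7.77 CPM in STM2457. Each STM2457 library exceeded each DMSO library, and the log2 change was 0.47 (SE 0.10, edgeR adjusted p = 0.00128), or 0.47 (adjusted p = 0.00212) without replicate 3 of STM2457 and 0.52 (adjusted p = 0.00159) without replicate 2 of DMSO. NFKB2 was at 31.1, 29.6 and 29.9 CPM in DMSO and at 23.6, 25.6 and 19.0 CPM in STM2457. The groups did not overlap, and NFKB2 fell by 0.41 on the log2 scale (SE 0.08, edgeR adjusted p = 0.000359), or by 0.31 (adjusted p = 0.000223) without replicate 3 of STM2457 and by 0.44 (adjusted p = 0.000874) without replicate 2 of DMSO. NFKBIE, at 8.40 to 9.59 CPM in DMSO and 7.91 to 8.07 in STM2457, missed the threshold at -0.18 (adjusted p = 0.0649) and passed at -0.24 without replicate 3 of DMSO (adjusted p = 0.0285), as did NFKB1 (-0.11, or -0.17 without it). IER3 had a log2 change of 0.15 (adjusted p = 0.185), and of 0.23 (adjusted p = 0.0371) without STM2457 replicate 3. The log2 changes of NFKBIA, RELB and MAP3K14 were 0.03, -0.01 and 0.05, each with an interval that included 0.

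The spread between scalings was large in this comparison. The median log2 change of all genes shifted by -0.26 when libraries were scaled on ribosomal protein genes and by -0.37 when they were scaled on spike-in RNAs. The TNFAIP3 change was then 0.20 (adjusted p = 0.243) or 0.10 (adjusted p = 0.740), and that of NFKB2 -0.66 or -0.75. Relative to the median of all genes, TNFAIP3 stood at 0.48 under each of the 3 scalings and NFKB2 between -0.39 and -0.36. A new scaling moves all genes by about the same amount, so these values stay nearly the same by construction and test nothing.

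With YTHDF2 siRNA present, 3 members rose under STM2457 and 1 fell, against 30.9% of all genes called (15.5% higher and 15.4% lower). TNFAIP3 was at 7.85, 6.52 and 6.25 CPM in DMSO and at 10.5, 11.1 and 10.2 CPM in STM2457, which left a clear gap between the groups. Its log2 change was 0.63 (SE 0.10, edgeR adjusted p = 6.88e-05). IER3 went from 6.41, 7.05 and 6.17 CPM to 8.91, 8.26 and 8.46 CPM, again without overlap (log2 change 0.38, SE 0.09, adjusted p = 0.00419). NFKB2 fell by 0.24 (adjusted p = 0.0275), from 29.6 to 32.1 CPM down to 25.7 to 27.6 CPM. MAP3K14 passed narrowly at 0.22 (adjusted p = 0.0474), from 8.24 to 8.58 CPM up to 9.27 to 10.2 CPM. The NFKB2 and MAP3K14 calls were lost in 4 and 5 of the 6 fits that left out 1 library, and with spike-in scaling only NFKB2 of the 4 calls held. The MAP3K14 call was also lost in DESeq2 and with no low-count filter.

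Whether the STM2457 effect differed between cells with and without YTHDF2 siRNA was tested by the interaction. None of the 8 members passed in edgeR, and 0 passed in DESeq2, while 8.70% of all genes did in edgeR (1.78% higher and 6.93% lower), and 1 member (NFKBIE) had an unadjusted p under 0.05. The difference was 0.16 for TNFAIP3, with a 95% interval from -0.14 to 0.46, and 0.23 for IER3 (-0.04 to 0.51). For NFKB2 it was 0.17 (-0.06 to 0.41) and for NFKBIE 0.25 (0.01 to 0.48, adjusted p = 0.205). Without replicate 3 of STM2457 these 4 differences were 0.16, 0.15, 0.07 and 0.27, and without replicate 2 of DMSO they were 0.10, 0.25, 0.20 and 0.21, and none of the 8 members passed in either fit.

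At 9 h of STM2457, 7 of 8 members passed, 3 higher and 4 lower, where 64.7% of all genes passed (32.2% higher and 32.5% lower). IER3 was at 7.54, 7.24, 6.06 and 7.18 CPM in DMSO and at 12.6, 12.9, 14.4 and 14.03 CPM in STM2457. The lowest STM2457 library was well above the highest DMSO library, and IER3 rose 1.92-fold (95% interval 1.72 to 2.14, log2 change 0.94, SE 0.08, edgeR adjusted p = 6.16e-11). TNFAIP3 was at 5.62, 5.51, 5.71 and 4.90 CPM in DMSO and at 8.46, 9.37, 8.52 and 8.95 CPM in STM2457. It rose 1.63-fold (1.45 to 1.83, adjusted p = 2.75e-08), with a gap between the groups. NFKB2 fell by 0.38 (SE 0.05, adjusted p = 7.93e-07), from 36.9, 31.4, 33.0 and 33.6 CPM to 27.5, 25.6, 24.0 and 26.9 CPM. Among smaller changes, MAP3K14 rose by 0.19 (adjusted p = 0.00839), from 11.8 to 12.3 CPM up to 12.6 to 14.3 CPM. RELB fell by 0.31 (adjusted p = 0.0292), NFKBIE by 0.20 (0.0263) and NFKBIA by 0.16 (0.0232). The DMSO and STM2457 libraries of NFKBIE and NFKBIA overlapped, and these 3 calls were lost in 3 to 5 of the 8 fits that left out 1 library. The RELB call was also lost in DESeq2 and with no low-count filter. Scaled to ribosomal protein genes, NFKBIA changed sign (0.01) and the RELB and NFKBIE calls were lost, while the median of all genes moved by 0.17.

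Where no emetine was added in the emetine experiment, 6 h of STM2457 gave 3 members higher and 2 lower, against 47.8% of 15817 genes called (26.0% higher and 21.9% lower). TNFAIP3 went from 4.88, 4.71 and 3.95 CPM to 7.33, 7.17 and 9.00 CPM, the groups being apart, and rose 1.73-fold (1.48 to 2.04, edgeR adjusted p = 4.30e-07). MAP3K14 went from 6.90, 6.28 and 7.08 CPM to 9.63, 9.63 and 9.39 CPM (log2 change 0.50, SE 0.08, adjusted p = 4.29e-06). At the same time and dose of STM2457 in the knockdown experiment its change was 0.05 (-0.12 to 0.22). The labels there name no added 2 h of DMSO, and the difference between these experiments was not tested. IER3 rose from 7.08, 5.65 and 7.12 CPM to 9.04, 8.52 and 10.2 CPM (0.49, SE 0.10, adjusted p = 0.000147). NFKB2 fell from 23.7, 26.1 and 25.02 CPM to 19.0, 19.2 and 19.5 CPM (-0.37, SE 0.06, adjusted p = 2.40e-06). NFKBIE fell by 0.25 (adjusted p = 0.0194), from 9.15 to 9.97 CPM down to 7.42 to 9.04 CPM, a call lost without replicate 2 of STM2457 (-0.21, adjusted p = 0.0674). Without that library TNFAIP3, MAP3K14, IER3 and NFKB2 still passed, at 0.83, 0.47, 0.51 and -0.40. The TNFAIP3, MAP3K14, IER3 and NFKB2 calls held under both other scalings.

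With emetine in both arms, STM2457 gave 3 members higher and 1 lower, against 37.8% of all genes called (21.6% higher and 16.2% lower). TNFAIP3 again rose, from 7.53, 8.65 and 7.66 CPM to 11.5, 13.2 and 12.6 CPM (0.64, SE 0.09, edgeR adjusted p = 1.04e-06). NFKBIA rose by 0.26 (adjusted p = 0.00255), from 14.8, 16.5 and 16.5 CPM to 19.7, 17.9 and 19.8 CPM, and MAP3K14 by 0.16 (adjusted p = 0.00765). NFKB2 fell by 0.15 (adjusted p = 0.0406), a call lost in each of the 6 fits without 1 library, in DESeq2 and with no low-count filter. With either other scaling the NFKBIA and MAP3K14 calls were lost, and with spike-in scaling that of NFKB2 was also lost.

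**Figure D2:**
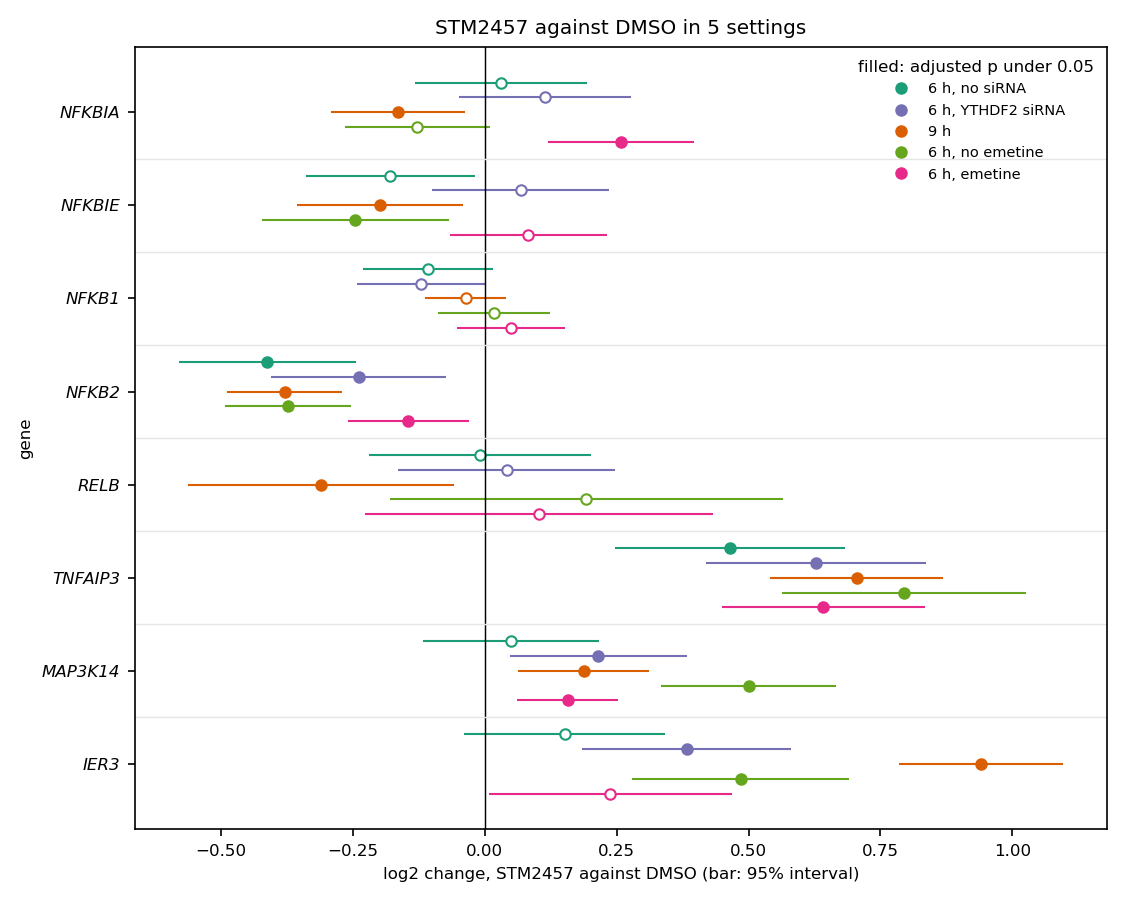
Log2 change under STM2457 against DMSO (x axis) for each gene (y axis) in 5 settings (colours), with 95% intervals as bars and filled points for an edgeR adjusted p under 0.05. All 5 TNFAIP3 points are filled and lie between 0.47 and 0.79, and all 5 NFKB2 points are filled and lie between -0.41 and -0.15.

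The difference between the STM2457 effects at 9 h and at 6 h was tested across 2 experiments, so time and experiment cannot be told apart. IER3 was the only member to pass, with 34.0% of 16749 genes called (17.2% higher and 16.8% lower), and its effect was larger at 9 h by 0.81 (SE 0.13, edgeR adjusted p = 6.51e-05). It was 0.72 (adjusted p = 4.1e-05) without replicate 3 of STM2457 at 6 h and 0.82 (adjusted p = 0.000236) without replicate 2 of DMSO at 6 h. With the 6 h libraries of the emetine experiment in place of those of the knockdown experiment, a comparison added after seeing the data, the IER3 difference was 0.48 (adjusted p = 0.00526). MAP3K14 then passed in the other direction, at -0.29 (adjusted p = 0.0357) where the first comparison gave 0.16. The IER3 effect at 9 h was thus larger than in either 6 h experiment. TNFAIP3 differed by 0.26 (-0.01 to 0.53), or by -0.06 with the emetine experiment. Under ribosomal protein scaling the median of all genes shifted by 0.42 and 6 members passed, where 9684 of the 16749 genes did (9615 higher and 69 lower).

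The comparison of emetine with none, in DMSO, shares the DMSO libraries of the STM2457 comparison without emetine. Emetine for 2 h raised 5 members and lowered 2, so 7 of 8 passed where 62.2% of all genes did (33.9% higher and 28.3% lower). The median log2 change was 0.31 over the members and 0.04 over all genes. MAP3K14 went from 6.90, 6.28 and 7.08 CPM to 43.6, 44.5 and 43.7 CPM, or from 168 to 191 reads per library to 1146 to 1227 reads. It rose 6.51-fold (5.96 to 7.11, log2 change 2.70, SE 0.06, edgeR adjusted p = 4.53e-27), and by size of change in either direction it ranked 32 of the 15817 genes tested. The overlapping antisense gene MAP3K14-AS1 was at 1.19 ± 0.253 CPM without and 1.39 ± 0.292 CPM with emetine.

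The inhibitors of the pathway moved by different amounts, and the signs of NFKBIA and IER3 given here hold relative to the bulk of mRNAs only. TNFAIP3 went from 4.88, 4.71 and 3.95 CPM to 7.53, 8.65 and 7.66 CPM, and rose 1.75-fold (log2 change 0.81, 95% interval 0.58 to 1.04, edgeR adjusted p = 1.02e-07). NFKBIE went from 9.97, 9.68 and 9.15 CPM to 14.04, 13.6 and 14.4 CPM, and rose 1.46-fold (1.30 to 1.62, adjusted p = 2.37e-07), with no overlap for either gene. NFKBIA fell from 18.2, 20.2 and 18.6 CPM to 14.8, 16.5 and 16.5 CPM (-0.25, SE 0.07, adjusted p = 0.00147). IER3 fell from 7.08, 5.65 and 7.12 CPM to 5.14, 5.28 and 4.92 CPM (-0.37, SE 0.11, adjusted p = 0.00373). Of the subunits, RELB rose by 0.50 (adjusted p = 0.0121), from 2.13, 2.02 and 2.44 CPM to 3.54, 3.22 and 2.56 CPM, and lost the call in 3 of the 6 fits without 1 library. NFKB1 passed at 0.13 (adjusted p = 0.0266) and lost the call in DESeq2 and in 3 of the 6 fits, and NFKB2 did not pass (0.05).

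Emetine changes depend strongly on the scaling. The median log2 change of all genes moved by 0.44 when libraries were scaled to ribosomal protein genes and by 0.49 with spike-in RNAs, and the calls over all genes went from 5360 higher and 4477 lower to 11558 higher and 227 lower with the latter. NFKBIA was then higher, by 0.18 or 0.23, with adjusted p of 0.0282 and 0.0273, and IER3 had changes of 0.07 and 0.11 that did not pass. Relative to the median of all genes, the change was -0.29 for NFKBIA, -0.41 for IER3 and 2.67 for MAP3K14 under each of the 3 scalings. That these values stay the same follows from the construction, because a new scaling moves all genes about equally. MAP3K14, TNFAIP3, NFKBIE, RELB and NFKB1 were higher under each, and NFKB2 passed as higher under both other scalings, with changes up to 0.54.

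With STM2457 present, emetine raised 6 members and lowered 1, against 59.8% of all genes called (30.4% higher and 29.4% lower). MAP3K14 went from 9.63, 9.63 and 9.39 CPM to 47.6, 49.9 and 49.6 CPM, a rise of 5.13-fold (4.71 to 5.59, edgeR adjusted p = 8.79e-26). NFKBIE went from 9.04, 7.42 and 7.92 CPM to 14.5, 15.4 and 14.5 CPM, a rise of 1.83-fold (1.63 to 2.05, adjusted p = 4.10e-11). TNFAIP3 rose by 0.66, NFKB2 by 0.28, NFKB1 by 0.16 and RELB by 0.41, and IER3 fell by 0.62 (edgeR adjusted p = 4.36e-06), with IER3 libraries at 5.79 to 6.43 CPM against 8.52 to 10.2 CPM without emetine. The RELB and NFKB1 calls were lost in 3 and 2 of the 6 fits without 1 library, and that of RELB also in DESeq2. For each of these genes the libraries with and without emetine overlapped. Without replicate 2 of STM2457 without emetine the NFKB1 change was 0.12 (edgeR adjusted p = 0.0702). The IER3 change was -0.11 with ribosomal protein scaling and -0.08 with spike-in scaling, and neither passed. NFKBIA had a change of 0.13 that did not pass (adjusted p = 0.0931) and 0.64 or 0.67 under these scalings, which did.

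Whether emetine altered the STM2457 effect was tested by the interaction, which 17.8% of all genes passed (6.71% higher and 11.1% lower) and 4 members passed, 3 higher and 1 lower. NFKBIA was the clearest member, with an STM2457 effect of -0.13 without and 0.26 with emetine, a difference of 0.39 (SE 0.10, edgeR adjusted p = 0.00369). NFKBIE (0.33, adjusted p = 0.0416) and NFKB2 (0.23, adjusted p = 0.0493) also shifted upward, and MAP3K14 shifted downward (-0.34, adjusted p = 0.00889). The NFKBIE and NFKB2 calls were lost in DESeq2 and in 9 and 10 of the 12 fits without 1 library, and the MAP3K14 call without replicate 2 of DMSO without emetine (-0.28, adjusted p = 0.0572) and with either other scaling. The NFKBIA call held in each of the 12. Without replicate 2 of STM2457 without emetine, 2 of the 4 calls remained, those of NFKBIA (0.42) and MAP3K14 (-0.33). TNFAIP3 had a difference of -0.15, with an interval from -0.45 to 0.15.

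YTHDF2 siRNA was compared with none in the same DMSO libraries that the first STM2457 comparison used. In DMSO it changed 4 of 8 members, 2 in each direction, where 62.4% of all genes passed (33.1% higher and 29.3% lower). NFKBIE went from 9.06, 9.59 and 8.40 CPM to 6.74, 6.85 and 6.98 CPM, and fell by 0.40 (SE 0.08, edgeR adjusted p = 0.000204). IER3 went from 7.94, 8.30 and 8.86 CPM to 6.41, 7.05 and 6.17 CPM, and fell by 0.35 (SE 0.09, adjusted p = 0.00310). NFKB1 rose by 0.22 (SE 0.06, adjusted p = 0.00291), from 36.9, 36.3 and 33.3 CPM to 43.2, 40.3 and 40.6 CPM. Without replicate 2 of DMSO the changes of these 3 were -0.38, -0.39 and 0.21, and all passed. For these 3 genes the groups did not overlap, whereas the TNFAIP3 libraries overlapped (5.34 to 6.32 against 6.25 to 7.85 CPM), and its call (0.26, adjusted p = 0.0398) was lost in DESeq2 and in 4 of the 6 fits without 1 library. With spike-in scaling none of the 4 passed and their changes were -0.37, -0.33, 0.25 and 0.30. NFKBIA, NFKB2, RELB and MAP3K14 had changes between -0.09 and 0.15 that did not pass.

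In STM2457, YTHDF2 siRNA raised 3 members and lowered 0, against 59.9% of all genes called (29.8% higher and 30.1% lower), and the comparison uses replicate 3 of STM2457, which stood apart. TNFAIP3 went from 8.88, 7.13 and 7.77 CPM to 10.5, 11.1 and 10.2 CPM (0.42, SE 0.10, edgeR adjusted p = 0.00112), or 0.39 without that library (adjusted p = 0.00311). NFKB1 rose by 0.21 (adjusted p = 0.00518), or 0.16 without it (adjusted p = 0.0224). The NFKB2 change of 0.22 (adjusted p = 0.0260) became 0.09 (adjusted p = 0.186) without it. IER3 (-0.12) and NFKBIA (0.14) did not pass with it and passed without it, at -0.22 and 0.21. With spike-in scaling none of the 8 passed.

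**Figure D3:**
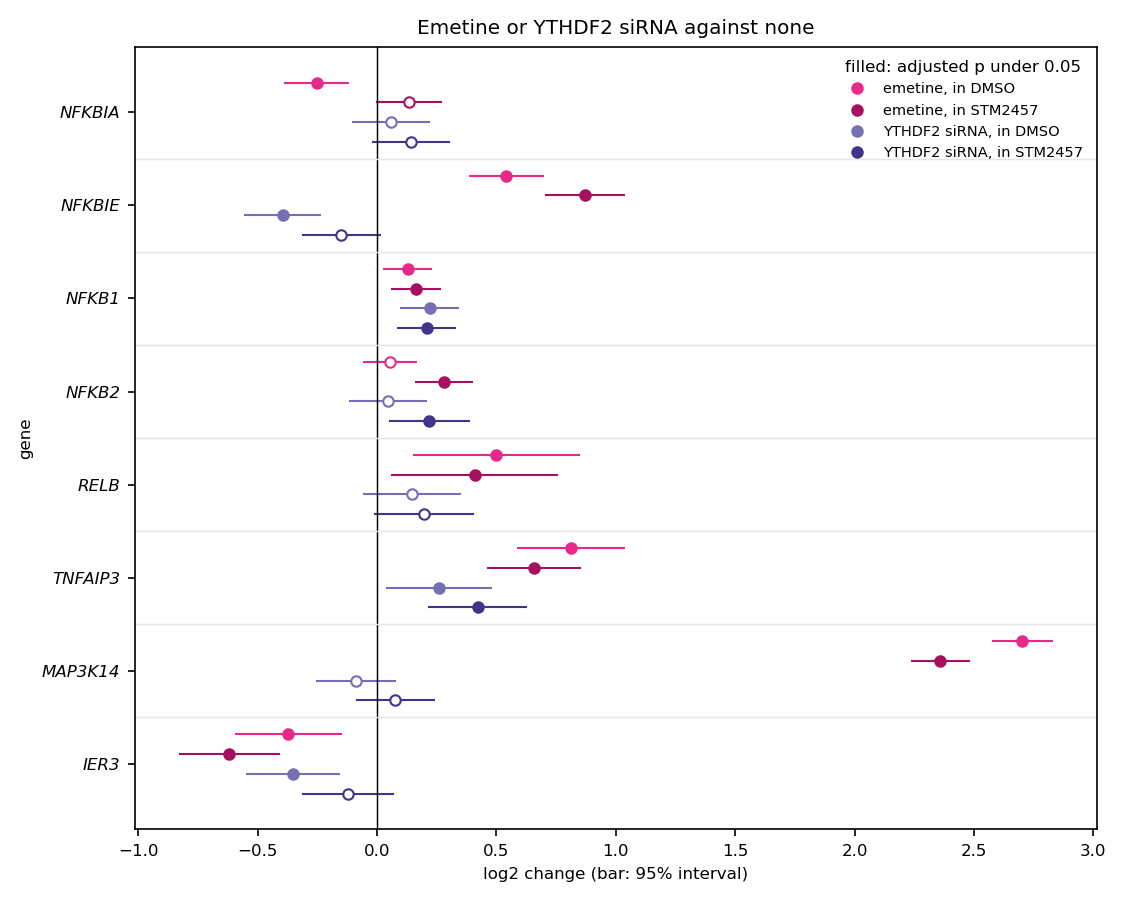
Log2 change (x axis) of each gene (y axis) with emetine or YTHDF2 siRNA against none, each in DMSO and in STM2457 (colours), with 95% intervals as bars and filled points for an edgeR adjusted p under 0.05. MAP3K14 stands at 2.70 and 2.36 with emetine and near 0 with siRNA, while NFKBIE is higher with emetine and lower with siRNA in DMSO.

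The other genes of the pathway were grouped in 4 lists, of receptors and ligands (17 genes), adaptors, ubiquitin ligases and kinases (24), the other subunits, coactivators and inhibitors (20) and target genes (30, of which 29 were matched). Many of the ligands and inflammatory targets were too low to test, among them TNF, LTA, IL1A, IL1B, IL6, CCL2, CCL5 and CXCL10. In the knockdown experiment 9 receptors and ligands and 18 target genes could be tested, and at 9 h and in the emetine experiment 9 and 15.

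Counts for these lists are with TMM scaling only, so they hold relative to the bulk of mRNAs. Under STM2457, of the adaptors and kinases, 10 rose and 4 fell of 24 at 6 h without siRNA, where 22.9% of all genes rose and 22.1% fell. At 9 h 12 rose and 5 fell of 23, where 32.2% of all genes rose and 32.5% fell. TRAF6, the ubiquitin ligase of the interleukin-1 and Toll-like receptor branch, rose by 1.04 (edgeR adjusted p = 8.61e-12), 0.76, 0.89, 1.02 and 0.66 in the 5 settings in the order given above, and in the last of these with an adjusted p of 4.95e-15. RIPK1, the kinase that scaffolds TNF receptor signalling, rose by 0.65 at 6 h and by 0.88 at 9 h, and TAB2, an adaptor of the TAK1 kinase, by 0.54 at 6 h. Among other subunits and inhibitors, 6 rose and 1 fell of 20 at 6 h without siRNA and 7 rose and 5 fell of 20 at 9 h, against the same shares of all genes. OTUD7B, a deubiquitinase, rose by 0.71 and 0.40 in these, NKIRAS1 by 0.59 at 6 h, and TAX1BP1, a partner of A20, fell by 0.36 at 9 h. RELA, the main activating subunit, rose by 0.42 at 6 h in the emetine experiment without emetine.

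Of the target genes, 4 rose and 3 fell of 18 at 6 h without siRNA, with a median of -0.05 against -0.02 over all genes. At 9 h 7 rose and 1 fell of 15, with a median of 0.31. The shares over all genes were 22.9% higher and 22.1% lower at 6 h, and 32.2% and 32.5% at 9 h. TNFAIP8 rose by 0.76 at 6 h and 0.67 at 9 h, and BCL2L1, which encodes an inhibitor of apoptosis, by 0.48 and 0.69. SQSTM1, the autophagy receptor p62, fell by 0.40 and 0.71. Of the receptors, 5 rose and 0 fell of 9 at 9 h, among them TNFRSF11A (0.58), TNFRSF1A (0.28) and IL1R1 (0.81), and 3 rose and 2 fell at 6 h without siRNA, where CD40 fell by 0.51. In the emetine experiment without emetine, 6 h of STM2457 gave 6 target genes higher and 1 lower of 15, with a median of 0.38. There 3 receptors rose and 0 fell of 9, with a median of -0.05, where 26.0% of all genes rose and 21.9% fell.

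With emetine in DMSO, 14 adaptors and kinases rose and 3 fell of 23, and 10 target genes rose and 2 fell of 15, where 33.9% of all genes rose and 28.3% fell. This split holds relative to the bulk of mRNAs, since with spike-in scaling 11558 of all genes were higher and 227 lower. The median changes of these lists were 0.28 and 0.47, against 0.04 over all genes. GADD45B and KLF6, which respond early to many stimuli, rose by 1.64 and 1.19 (edgeR adjusted p = 1.45e-21 for both). TRAF6 rose by 0.95, IKBKB, a catalytic subunit of IkB kinase, by 0.83, and TRAF2, part of the complex that degrades NIK, by 0.68. The other subunits and inhibitors were divided, with 8 higher and 7 lower of 20.

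YTHDF2 siRNA in DMSO raised 14 and lowered 5 of 24 adaptors and kinases and raised 12 and lowered 2 of 20 other subunits and inhibitors, where 33.1% of all genes were higher and 29.3% lower. TAB3 rose by 0.62, and CHUK and MAP3K7, which encode the kinases IKKα and TAK1, fell by 0.57 and 0.51. CYLD, a deubiquitinase that limits the pathway, rose by 0.51 and NKIRAS1 by 0.80. BCL2L1 rose by 1.15 and GADD45B fell by 0.43 among the target genes, of which 4 rose and 5 fell of 18. In the interaction with STM2457, 6 of 24 adaptors and kinases were lower and 0 higher, where 6.93% of all genes were lower and 1.78% higher, and BIRC2 (-0.53), TRAF5 (-0.58) and TRAF3 (-0.45) had the smallest p. BIRC2 and TRAF3 belong to the complex that keeps NIK protein low.

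**Figure D4:**
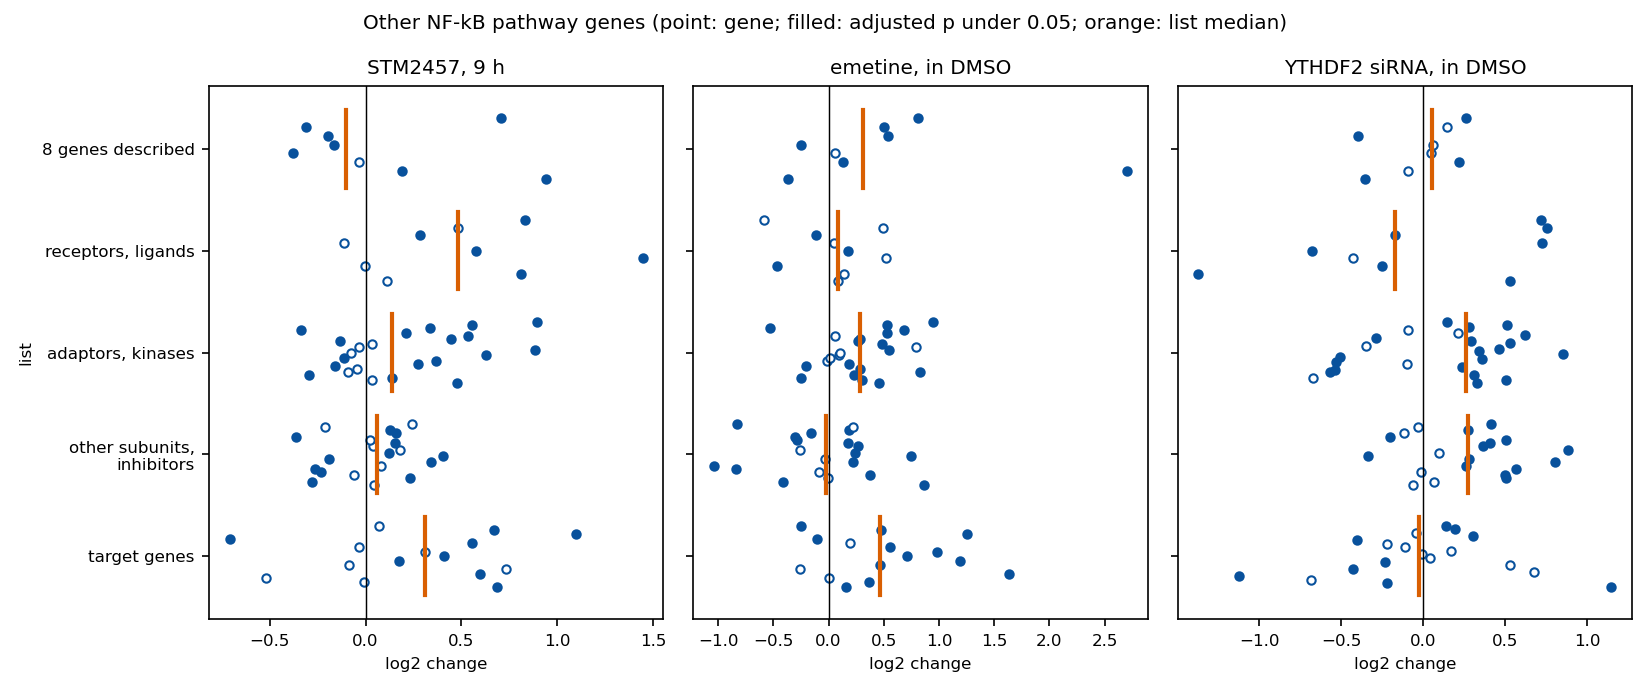
Log2 change (x axis) of the 8 genes and of the 4 lists of other pathway genes (rows) with STM2457 at 9 h, with emetine in DMSO and with YTHDF2 siRNA in DMSO (panels), with points for genes, filled for an edgeR adjusted p under 0.05, and orange lines for medians. MAP3K14 at 2.70 with emetine lies beyond all genes of the 4 lists, of which GADD45B at 1.64 is next.

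Patterns over all treatments were compared through the 10 group means of log2 CPM, centred within each experiment, against 11198 genes (11199 for RELB). These points share libraries' depth within an experiment, and the emetine groups weigh heavily. Nearest to MAP3K14 were CCT6P1 (Pearson r = 0.994), a pseudogene whose reads may come from its parent gene, and SLC7A6OS (0.993). NFKBIE was nearest to GADD45A (0.992) and SLC25A38 (0.990), NFKB2 to SHMT1 (0.989) and DHTKD1 (0.987), and TNFAIP3 to ZNF710 (0.983) and ZNF449 (0.982). IER3 was nearest to NKD1 (0.978) and CLMN (0.968), NFKB1 to TMEM94 (0.966) and SARM1 (0.962), and RELB to WDR76 (0.963) and NXF1 (0.962). NFKBIA had no such close neighbour, its nearest being CCDC74B (0.849) and GIHCG (0.821). Among the members themselves the highest values were between NFKBIE and MAP3K14 (0.835) and between RELB and MAP3K14 (0.832), and the lowest was between NFKB2 and IER3 (-0.861).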

How the data were processed

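Poly(A) RNA of HEK293T cells was sequenced with a strand-specific kit, per the labels' protocols, in 32 libraries. The deposited values were raw read counts per Ensembl gene ID. Tools named in the submitters' processing notes are STAR 2.7.3a, featureCounts of Subread 2.0.0, SAMtools 1.9, Trimmomatic, FastQC 0.11.8 and cutadapt (1.18 and 4.0), with the build GRCh38.p12. The annotation release and strand setting were not given in the sources used here. Symbols and positions came from GENCODE 29 (58587 of 60662 IDs matched) and promoters from RefSeq GRCh38.p14.

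Each experiment was fitted apart over all its groups with edgeR 4.0.16 in R 4.3.3 (TMM, filterByExpr on the groups, quasi-likelihood F test, Benjamini-Hochberg over all genes tested, threshold 0.05), after tests on simulated data. CPM values use the TMM library sizes. Intervals are 95% intervals of the fit. Alternatives were DESeq2 1.42.0, DESeq2-type size factors, no low-count filter, scaling to 79 ribosomal protein genes or to 92 spike-in RNAs (present in 24 libraries, not at 9 h), a replicate block, fits of the compared groups only, and each library left out. All 8 members were tested in each comparison, and those that passed are named, with some that did not. Other pathway genes are named by the smallest p (up to 3 per list and comparison). For likeness, the 2 highest correlations are named among genes whose mean log2 CPM reached 2. A gene named by this rule in 1 comparison may be given in another. The members and lists were chosen with earlier results of these data known. Nothing in the labels says that replicates are separate cultures, so p-values measure the spread between these libraries, which may be technical.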

Additional observations from a re-analysis of the deposited data

Results flagged for a closer look

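In 5 cases the effect of STM2457 on a member differed between 2 settings by a test of the difference itself. Of all genes, 17.8% passed the test with against without emetine, and 34.0% that of 9 h against 6 h. With emetine the STM2457 effect on NFKBIA was 0.39 higher on the log2 scale than without (0.3863, edgeR adjusted p = 0.00369), and that on NFKBIE 0.33 higher (0.3282, adjusted p = 0.0416). For NFKB2 the difference was 0.23 (0.2273, adjusted p = 0.0493). The NFKBIE and NFKB2 calls were lost in DESeq2 and in 9 and 10 of the 12 fits without 1 library. For MAP3K14 the difference was -0.34 (-0.3427, adjusted p = 0.00889), on a gene whose level with emetine was several times that without. This call was lost with either other scaling and in 1 of the 12 fits. The IER3 effect was larger at 9 h than at 6 h in the knockdown experiment by 0.81 (0.8106, adjusted p = 6.51e-05), a difference in which the hours of treatment and the experiment cannot be told apart. In the 16 groups of 4 libraries checked (8 genes in each of 2 groups), no library lay far enough from the others to be called apart by Dixon's criterion.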

How the results depend on the processing

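The calls on single members that held in each alternative run were NFKB2 for STM2457 at 6 h without siRNA; TNFAIP3, MAP3K14, IER3 and NFKB2 at 9 h and at 6 h without emetine; TNFAIP3 with emetine; MAP3K14, NFKBIE and TNFAIP3 for emetine in DMSO and in STM2457, and NFKB2 in the latter; NFKBIA in the emetine interaction; and IER3 for 9 h against 6 h. Values below are log2 changes, and the cause of each change was not tested. With ribosomal protein and with spike-in scaling, in that order, signs turned for STM2457 at 6 h without siRNA in NFKBIA (-0.2422, -0.3388), MAP3K14 (-0.2104, -0.3008) and IER3 (-0.1002, -0.2086), and with siRNA in NFKBIA (-0.0768, -0.1853), NFKBIE (-0.1233, -0.2326), RELB (-0.1467, -0.2792) and, with spike-ins, MAP3K14 (-0.0886). They also turned in the siRNA interaction for NFKB1 (0.0576, 0.0241), without emetine for NFKB1 (-0.156, -0.1175), with emetine for NFKBIE (-0.0241, -0.004), NFKB1 (-0.0575, -0.0362) and RELB (-0.0038, ribosomal only), and for emetine in DMSO in NFKBIA (0.1849, 0.2326) and IER3 (0.0672, 0.1109). With ribosomal scaling they turned at 9 h in NFKBIA (0.0098) and NFKB1 (0.1363), and for 9 h against 6 h in NFKBIA (0.2522) and RELB (0.1329). For 9 h against 6 h NFKBIE was at -0.0489 with DESeq2-type size factors, -0.0249 with no filter, -0.0037 with the replicate block and -0.0491 in DESeq2. With the 6 h libraries of the emetine experiment, an alternative chosen after seeing the data, NFKB1 was at -0.0286, TNFAIP3 at -0.0642 and MAP3K14 at -0.2867, and 2 members were called where 1 was.

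The number of members called went, with ribosomal and with spike-in scaling, from 2 to 4 (ribosomal only) for STM2457 at 6 h without siRNA, from 4 to 2 and 1 with siRNA, from 4 to 1 and 0 for siRNA in DMSO, from 3 to 0 (spike-ins) for siRNA in STM2457, from 4 to 2 and 1 for STM2457 with emetine, and from 1 to 6 (ribosomal) for 9 h against 6 h. The emetine interaction went from 4 to 2 with no filter, 1 with spike-ins and 2 in DESeq2. Spike-in scaling called 0 of all genes in the siRNA interaction. For STM2457 at 6 h without siRNA, other scalings turned the split of all genes from 3814 higher and 3677 lower to 1245 and 7361 (ribosomal) or 398 and 5023 (spike-ins), with siRNA from 2577 and 2569 to 703 and 4241 or 138 and 2381. Without emetine it went from 4108 and 3459 to 2198 and 6696 or 2092 and 4679, with emetine from 3409 and 2563 to 1657 and 4375 or 1351 and 2581, at 9 h from 5104 and 5140 to 7531 and 2405, for 9 h against 6 h from 2878 and 2809 to 9615 and 69, and for emetine in STM2457 from 4805 and 4654 to 11578 and 353 or 11548 and 219.

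With 1 library left out, counts ran from 2 to 4 for STM2457 at 6 h without siRNA and with siRNA, 1 to 4 for siRNA in STM2457, 1 to 4 for the emetine interaction and 1 to 2 for 9 h against 6 h. Signs turned within -0.063 to 0.0952 for NFKBIA, -0.0681 to 0.0449 for RELB and -0.0324 to 0.0691 for MAP3K14 (6 h without siRNA), -0.0013 to 0.0887 for RELB (with siRNA), -0.0147 to 0.0586 for NFKBIA and -0.0049 to 0.0721 for NFKB2 (siRNA), -0.0393 to 0.0432 for NFKB1 and -0.0062 to 0.1159 for RELB (siRNA interaction), -0.0353 to 0.0249 for NFKB1 (without emetine), -0.0202 to 0.2437 for RELB (with emetine), -0.0136 to 0.0674 for NFKB2 (emetine), -0.0158 to 0.0892 for NFKB1 and -0.2142 to 0.0491 for RELB (emetine interaction), and -0.1109 to 0.0469 for NFKBIE and -0.058 to 0.1418 for NFKB2 (9 h against 6 h). Same-numbered libraries did not deviate together throughout (correlations -0.35 to 0.58 in the knockdown, -0.10 to 0.09 in the 9 h and -0.13 to 0.31 in the emetine experiment), so the numbers were not taken as pairs. With the replicate block, the number of members called stayed the same in each of the 12 comparisons. RELB had 45 to 224 reads per library.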
